A study of Mus musculus with 24 samples.

Results

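Transcript levels of 10 genes of the Nrf2 antioxidant response were followed in 2 mouse mammary tumor cell lines grown in culture and as tumors. The 10 genes (Nfe2l2, Keap1, Srxn1, Nqo1, Hmox1, Txnrd1, Gclm, Gclc, Slc7a11 and G6pdx) were chosen by name with earlier results from these libraries known, and all 10 were found among the 35275 genes listed for cultured cells and the 54532 listed for tumors. The lower level of Srxn1 in D2.1 tumors from BALB/c hosts than from SCID-beige hosts was one of those results, so the comparison of hosts in D2.1 tumors is described here without a test. The comparisons of the lines in tumors, and of SCID-beige tumors with culture, use the same D2.1 tumors. The Srxn1 results in them are therefore not independent of the choice of genes. The lines, D2A1 and D2.1, are related and arose from mammary hyperplastic nodules of BALB/c mice, and the study describes D2A1 as fast growing and D2.1 as dormant. In culture, however, the study found that both lines grew at about the same rate until confluence. It also found that the share of proliferating cells in D2.1 tumors rose with time in the host. RNA-seq libraries were made from 3 samples of cultured cells of each line (no treatment), from 4 tumors per line in BALB/c mice, whose immune system is intact, and from 5 tumors per line in SCID-beige mice, which lack T and B cells and have defective NK cells but keep their macrophages and neutrophils. Hosts were female, 8 to 12 weeks old when used for tumor studies, and untreated, and tumors were grown in the mammary fat pad to about 500 mm3. In another experiment the study collected D2A1 tumors earlier than D2.1 tumors to match their size. The days to collection of the sequenced tumors were not at hand. Time in the host and host age at collection thus cannot be told apart from line in the tumor comparisons. Each line is a single line, so a difference between D2.1 and D2A1 is a difference between these lines and not between dormant and growing cells in general. Whole tumors were sequenced, so fewer cells of a type and less RNA per cell cannot be told apart.

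Nrf2, the product of Nfe2l2, is a transcription factor that is held at a low level because Keap1 presents it to a Cul3 ubiquitin ligase for degradation. Oxidants and electrophiles modify cysteines of Keap1, Nrf2 then accumulates, pairs with small Maf proteins and binds the antioxidant response element, a short motif near genes for glutathione synthesis, thioredoxin reduction, quinone reduction, heme breakdown and NADPH supply. Control is thus largely at the level of the protein, and the transcript levels of Nfe2l2 and Keap1 do not measure its activity. In tumors the pathway is known for protecting cells from oxidative stress, and its targets respond to other factors as well.

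The sequences just upstream of the members are shown because several members moved together between the lines. In GENCODE M21 (GRCm38), Nqo1 spans chr8:107388225-107403206 (minus strand), Hmox1 chr8:75093621-75100589 (plus), G6pdx chrX:74409483-74429194 (minus), Srxn1 chr2:152105516-152111376 (plus) and Gclm chr3:122245557-122270732 (plus). The core of the antioxidant response element, TGACNNNGC on either strand, was searched in the 250 bases before each RefSeq transcription start (GRCm38.p6). A RefSeq promoter was at hand for 8 members, with 10 starts. The core was found before 4 of these 10 starts, each of a different member, against 10.2% of all 32851 mouse promoters of this length. The 29 bases around each match follow, with the 9 bases of the match in capitals, at chr2:75704885-75704913 (minus strand) for Nfe2l2, chr10:82859104-82859132 (plus) for Txnrd1, chr3:122245413-122245441 (plus) for Gclm and chrX:74428919-74428947 (minus) for G6pdx.
Nfe2l2: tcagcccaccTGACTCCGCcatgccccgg
Txnrd1: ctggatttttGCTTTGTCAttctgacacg
Gclm: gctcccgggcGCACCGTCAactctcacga
G6pdx: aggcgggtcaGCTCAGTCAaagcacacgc
The matches began 240, 92, 134 and 57 bases before the start, and the last 3 lie on the strand opposite to the gene. The G6pdx window also lies in an annotated first exon of a longer G6pdx transcript. The first 30 bases after the Nfe2l2 start were not found in a GENCODE transcript, while those of the other 9 starts were. The Txnrd1 match lies before a start inside the annotated gene, and no match was found before its other starts. Srxn1, which entered the choice of genes, and Nqo1, the member with the largest line difference in BALB/c tumors, are shown over the whole window at chr2:152105274-152105523 (plus) and chr8:107403206-107403455 (minus). Neither contains the core as searched. Srxn1 contains TGACTCA, the AP-1 motif that overlaps a form of the element, at 102 and 45 bases before its start (in capitals, written as its reverse complement). The match at 45 bases is followed by GC and so reads TGAGTCAGC, with a G where the searched forms have a C. Forms of the element with that G were not searched or counted, so their absence from the members is not shown. TGACTCA was present in 4.46% of all promoters, and the longer TGACTCAGC in 0.39% and in none of the members'. A match in these letters is a description of the sequence and not evidence of binding, and elements farther upstream lie outside the window.
Srxn1: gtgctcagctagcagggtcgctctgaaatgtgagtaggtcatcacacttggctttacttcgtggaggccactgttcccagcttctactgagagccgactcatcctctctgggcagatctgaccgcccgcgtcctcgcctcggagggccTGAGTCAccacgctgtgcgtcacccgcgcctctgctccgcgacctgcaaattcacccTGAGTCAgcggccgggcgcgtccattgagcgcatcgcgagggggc
Nqo1: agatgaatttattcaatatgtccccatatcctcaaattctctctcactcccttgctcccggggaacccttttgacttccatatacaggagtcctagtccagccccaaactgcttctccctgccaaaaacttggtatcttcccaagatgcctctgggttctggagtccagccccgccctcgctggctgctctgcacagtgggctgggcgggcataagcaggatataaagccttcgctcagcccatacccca

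Levels are given as CPM, the reads of a gene scaled so that the reads on all genes come to the same total in every library. Overlap between groups was read from CPM, while log2 fold changes come from fits with a further scaling of libraries (TMM), so the 2 can differ. In culture, for example, Txnrd1 had means of 315 CPM in D2.1 and 339 CPM in D2A1 cells but a fitted log2 fold change of 0.02. Libraries held 13566949 to 24818234 reads on genes, and the lowest count of any member in any library was 41 (Slc7a11 in a D2.1 tumor of a BALB/c mouse), well above the floor of 3 counts. Tumors carried host cells that cultured cells lacked, with 9 macrophage markers summing to 1690 to 4840 CPM in tumors and 1.27 to 10.1 CPM in culture. Fibroblast markers (5 genes) were higher in D2.1 tumors (835 to 1920 CPM) than in D2A1 tumors (365 to 821 CPM), and endothelial markers (5 genes) were lower (49.5 to 126 against 184 to 265 CPM). The 6 keratin and adhesion markers of epithelium summed to 2395 to 4236 CPM in cultured D2.1 cells and 141 to 350 CPM in cultured D2A1 cells, with 1 of 6 at 0 in every cultured sample. The study lists D2A1 as mesenchymal and D2.1 as a hybrid of epithelial and mesenchymal states. In tumors these markers overlapped between the lines (353 to 1183 against 468 to 828 CPM). T cell markers summed to 56.5 to 161 CPM in D2.1 tumors from BALB/c hosts and to at most 23.3 CPM in every other group. Replicate 1 of the D2.1 tumors in BALB/c mice had the highest milk protein (398 CPM), adipocyte (647.5 CPM) and skeletal muscle markers (348 CPM) of all libraries and 31.3 CPM of skin keratin markers. Replicate 4 of the same group had 102 CPM of skin keratin markers, against at most 7.62 CPM in all libraries but these. Skeletal muscle markers were also at 244.6 and 197 CPM in replicates 4 and 5 of the D2.1 tumors in SCID-beige mice, and red cell markers reached 1730 CPM in D2A1 replicate 5, SCID-beige. The part of these differences in the results below was not tested, except where a library was left out.

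**Figure D1:**
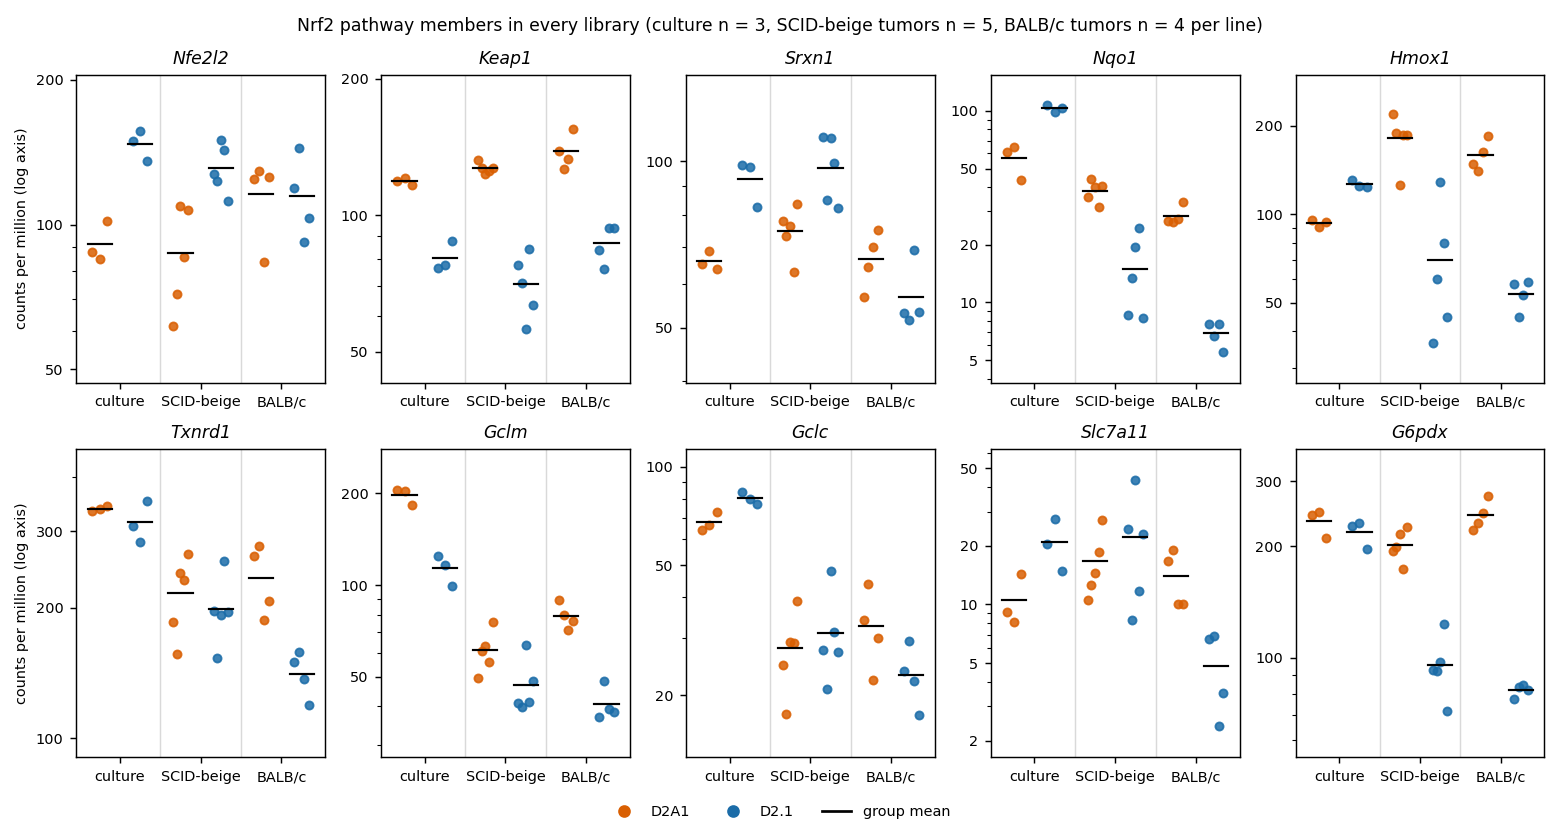
Level of each of the 10 genes in every library, in CPM on a log axis, with 1 point per library (D2A1 orange, D2.1 blue) and a bar at the group mean; the groups are 3 cultured samples, 5 tumors in SCID-beige mice and 4 tumors in BALB/c mice of each line. Nqo1 was higher in D2.1 than in D2A1 cells in culture (98.8 to 107 against 43.5 to 64.6) and lower in D2.1 tumors from BALB/c hosts (5.52 to 7.74 against 26.2 to 33.5), while Keap1 was lower in D2.1 in all 3 settings.

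In culture, most members were higher in D2.1 than in D2A1 cells. Of the 10, 6 were higher (Nfe2l2, Srxn1, Nqo1, Hmox1, Gclc and Slc7a11) and 2 were lower (Keap1 and Gclm), while Txnrd1 and G6pdx did not pass the test (edgeR quasi-likelihood, Benjamini-Hochberg adjusted p under 0.05 over 12489 genes). Over all genes tested, 24.2% had a higher and 20.7% a lower level in D2.1, so that both shares have to be read against a large general difference between the lines. The median log2 fold change of the members was 0.47, against -0.02 over all genes. Neither the labels nor the methods state that these samples came from separately grown cells, and the study's statistics section describes replicates in vitro as technical, so the p-values in culture measure the spread between these samples, which may be technical.

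Nqo1, a quinone reductase and a standard readout of the pathway, was measured at 107, 98.8 and 103 CPM in the D2.1 cultured samples and at 61.3, 64.6 and 43.5 CPM in the D2A1 cultured samples. The lowest D2.1 sample was above the highest D2A1 sample, with a log2 fold change of 0.99 ± 0.18 (SE, adjusted p = 0.002, edgeR). Hmox1, the enzyme that opens the heme ring, was at 130, 124 and 124 CPM in D2.1 and at 95.6, 90.6 and 94.2 CPM in D2A1 cells. The groups did not overlap, and the log2 fold change was 0.57 ± 0.11 (adjusted p = 0.0033, edgeR). Srxn1, which restores overoxidized peroxiredoxins, was at 98.4, 97.6 and 82.5 CPM in D2.1 and at 65.0, 68.7 and 63.9 CPM in D2A1 cells, again without overlap. Its log2 fold change was 0.63 ± 0.14 (adjusted p = 0.0064, edgeR).

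Among the regulators, Nfe2l2 itself was at 149, 157 and 136 CPM in D2.1 and at 87.5, 84.8 and 102 CPM in D2A1 cells (log2 fold change of 0.83 ± 0.13, adjusted p = 0.0011, edgeR). Keap1, its negative regulator, was at 76.4, 77.6 and 87.9 CPM in D2.1 and at 119, 121 and 116 CPM in D2A1 cells. Activator and inhibitor transcripts thus differed between the lines in opposite directions, with Keap1 at a log2 fold change of -0.43 ± 0.11 (adjusted p = 0.01, edgeR). The Keap1 call was lost at an adjusted p of 0.054 when replicate 1 or 2 of the D2A1 cultured samples was left out.

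The genes for making glutathione did not move as a block. Gclm, the modifier subunit of the enzyme for the first step of glutathione synthesis, was lower in D2.1 cells (99.1 to 125 CPM) than in D2A1 cells (184 to 205 CPM), with a log2 fold change of -0.66 ± 0.15 (adjusted p = 0.0067, edgeR). Gclc, the catalytic subunit of the same enzyme, was at 76.8 to 83.8 CPM in D2.1 and at 64.1 to 73.0 CPM in D2A1 cells. This small difference (log2 fold change of 0.37 ± 0.12, adjusted p = 0.031, edgeR) lost its call in 4 of the 6 fits that left out a cultured sample, with adjusted p up to 0.14. Slc7a11, the cystine transporter subunit that supplies cysteine for glutathione, was at 20.5, 27.4 and 14.9 CPM in D2.1 and at 9.15, 8.11 and 14.4 CPM in D2A1 cells. The groups were separated by less than 1 CPM, and the log2 fold change of 1.14 ± 0.29 (adjusted p = 0.013, edgeR) did not pass with the replicate number as a block (adjusted p = 0.061) or without D2.1 replicate 2 (0.86, adjusted p = 0.057). Txnrd1, the cytosolic thioredoxin reductase, and G6pdx, which feeds glucose into the NADPH-producing pentose phosphate pathway, overlapped between the lines (284 to 352 against 335 to 343 CPM, and 196 to 232 against 210.9 to 247 CPM).

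In tumors of SCID-beige mice, 2 of the 10 members were higher in D2.1 (Nfe2l2 and Srxn1) and 4 were lower (Keap1, Nqo1, Hmox1 and G6pdx), against 17.2% higher and 14.8% lower over all 14355 genes tested. Srxn1 is counted here although its level in these D2.1 tumors entered the choice of genes. The median log2 fold change of the members was -0.19, against 0.02 over all genes. Nqo1 was at 8.65, 13.5, 19.6, 24.6 and 8.28 CPM in D2.1 tumors and at 35.4, 44.1, 40.0, 31.6 and 40.6 CPM in D2A1 tumors. The groups did not overlap, and in contrast to culture D2.1 was the lower line (log2 fold change of -1.31 ± 0.29, adjusted p = 0.0032, edgeR).

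Hmox1 was at 36.4, 60.0, 129, 79.9 and 44.7 CPM in D2.1 and at 218.9, 190, 126, 187 and 186 CPM in D2A1 tumors of SCID-beige mice. The highest D2.1 tumor just exceeded the lowest D2A1 tumor, and the log2 fold change was -1.34 ± 0.30 (adjusted p = 0.0037, edgeR). Macrophages are known to express Hmox1 when they clear red cells. Their markers summed to 1690 to 3810 CPM in D2.1 and 1810 to 2750 CPM in D2A1 tumors of this host. Red cell markers were at 4.87 to 19.2 CPM in D2.1 and at 53.4 to 1730 CPM in D2A1 tumors, so they moved with Hmox1 between the lines. The part of either cell type in the Hmox1 levels was not tested. Leaving out any 1 tumor gave log2 fold changes between -1.66 and -1.21 with the call kept.

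G6pdx was at 92.6, 92.0, 97.1, 124 and 71.9 CPM in D2.1 and at 194, 199, 215.9, 174 and 225 CPM in D2A1 tumors of SCID-beige mice. It was lower in each D2.1 tumor than in any D2A1 tumor (log2 fold change of -1.03 ± 0.16, adjusted p = 0.00023, edgeR), although the cultured lines had not separated. Keap1 was at 77.7, 71.1, 56.2, 84.3 and 63.3 CPM in D2.1 and at 132, 127, 124, 125 and 127 CPM in D2A1 tumors, without overlap. Its log2 fold change was -0.80 ± 0.15 (adjusted p = 0.00095, edgeR), in the same direction as in culture. Nfe2l2 was at 127, 123, 150, 143 and 112 CPM in D2.1 and at 61.4, 71.8, 109, 85.5 and 107 CPM in D2A1 tumors, again without overlap (log2 fold change of 0.65 ± 0.16, adjusted p = 0.0064, edgeR).

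Srxn1 was at 111, 84.9, 110, 99.2 and 82.2 CPM in D2.1 and at 77.9, 73.3, 76.3, 63.0 and 83.7 CPM in D2A1 tumors of SCID-beige mice, so 1 tumor of each line crossed over. The log2 fold change was 0.43 ± 0.15 (adjusted p = 0.037, edgeR), and the call was lost in 7 of 10 fits without 1 tumor, with adjusted p up to 0.12. Txnrd1, Gclm, Gclc and Slc7a11 overlapped between the lines and were not called, with log2 fold changes from -0.33 for Gclm to 0.47 for Slc7a11.

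In tumors of BALB/c mice, 7 of the 10 members were lower in D2.1 than in D2A1 (Keap1, Nqo1, Hmox1, Txnrd1, Gclm, Slc7a11 and G6pdx) and 0 were higher, against 15.8% lower and 16.8% higher over all 14953 genes tested. The 3 others (Nfe2l2, Srxn1 and Gclc) had an unadjusted p of 0.05 or more in edgeR, and DESeq2 also called 0 members higher. The median log2 fold change of the members was -0.77, against -0.02 over all genes. Without the tumors that held milk or skin transcripts (D2.1 replicates 1 and 4), 5 members were lower, Txnrd1 and Slc7a11 then having adjusted p of 0.073 and 0.065.

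Nqo1 reached its lowest levels of all groups here, at 7.74, 6.67, 7.73 and 5.52 CPM in D2.1 against 26.7, 26.2, 27.2 and 33.5 CPM in D2A1 tumors. The log2 fold change of -1.97 ± 0.19 (adjusted p = 3.9e-05, edgeR) is a 3.91-fold difference. Hmox1 was at 57.8, 44.6, 53.1 and 58.7 CPM in D2.1 and at 148, 141, 163 and 185 CPM in D2A1 tumors (log2 fold change of -1.50 ± 0.16, adjusted p = 5.6e-05, edgeR). Both genes were separated between the lines by a gap larger than the range within D2.1 tumors. Macrophage markers overlapped here as well (2460 to 3250 against 2650 to 4840 CPM). Red cell markers were at 97.85, 36.05, 44.1 and 33.1 CPM in D2.1 and at 111, 95.3, 212.5 and 68.5 CPM in D2A1 tumors. They overlapped only through D2.1 replicate 1, and the other D2.1 tumors lay below every D2A1 tumor. The part of either cell type in the Hmox1 levels was not tested here either.

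G6pdx was at 77.5, 83.6, 84.2 and 82.0 CPM in D2.1 and at 221, 232, 246 and 274 CPM in D2A1 tumors of BALB/c mice, with a log2 fold change of -1.50 ± 0.13 (adjusted p = 1.9e-05, edgeR). Slc7a11 was at 6.65, 6.85, 2.37 and 3.497 CPM in D2.1 and at 16.7, 18.96, 10.0 and 10.0 CPM in D2A1 tumors, without overlap, whereas in culture D2.1 had been the higher line. Its log2 fold change was -1.45 ± 0.38 (adjusted p = 0.014, edgeR). Gclm, Txnrd1 and Keap1 were lower in D2.1 as well, with log2 fold changes of -0.88, -0.66 and -0.60, each without overlap between the lines.

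Gclc in BALB/c tumors overlapped between the lines (17.4 to 29.2 against 22.3 to 43.7 CPM) and was not called (log2 fold change of -0.42 ± 0.23, adjusted p = 0.2, edgeR), but passed with the replicate number as a block (adjusted p = 0.045). Nfe2l2 was at 92.1 to 144 CPM in D2.1 and at 83.4 to 130 CPM in D2A1 tumors, with a log2 fold change of 0.06 ± 0.18 that did not pass the test. Transcripts of the activator therefore did not separate these tumors, while transcripts of Nqo1, Hmox1 and G6pdx did. Srxn1 was at 53.1, 51.6, 69.0 and 53.4 CPM in D2.1 and at 56.8, 64.5, 69.9 and 75.1 CPM in D2A1 tumors, with overlap (log2 fold change of -0.16 ± 0.16).

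**Figure D2:**
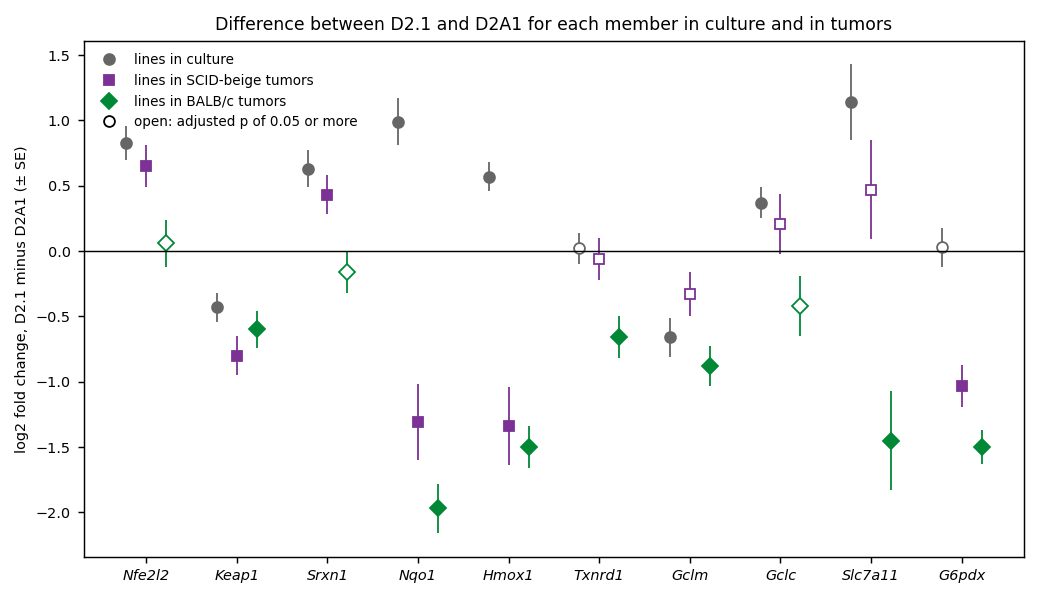
Fitted log2 fold change of D2.1 against D2A1 for each of the 10 genes, with its SE, in culture (circles, n = 3 samples per line), SCID-beige tumors (squares, n = 5) and BALB/c tumors (diamonds, n = 4); open symbols did not reach an adjusted p under 0.05 in edgeR. Nqo1 and Hmox1 lay above 0 in culture (0.99 and 0.57) and below 0 in both kinds of tumor (-1.31 and -1.34 in SCID-beige, -1.97 and -1.50 in BALB/c).

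Whether a line difference itself differed between tumors and culture was tested in 1 fit of cultured samples and SCID-beige tumors. In this test 3 of the 10 members passed, all with D2.1 lower relative to D2A1 in tumors than in culture, against 8.18% of all 15077 genes in that direction, and 0 members passed in the other direction, against 4.62%. They were Nqo1 (difference of -2.29 ± 0.41, adjusted p = 0.00079), Hmox1 (-1.89 ± 0.41, adjusted p = 0.0042) and G6pdx (-1.04 ± 0.24, adjusted p = 0.0061, edgeR). The first 2 changed sides between culture and tumor, while G6pdx went from no separation to lower. The members not called in this test were Nfe2l2, Keap1, Srxn1, Txnrd1, Gclm, Gclc and Slc7a11, with differences from -0.67 (Slc7a11) to 0.34 (Gclm). Cultures and tumors were quantified in separate tables, and host cells were present only in tumors, so the stroma of D2.1 and D2A1 tumors, which differed in fibroblast and endothelial markers, cannot be told apart from the tumor cells in this comparison.

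**Figure D3:**
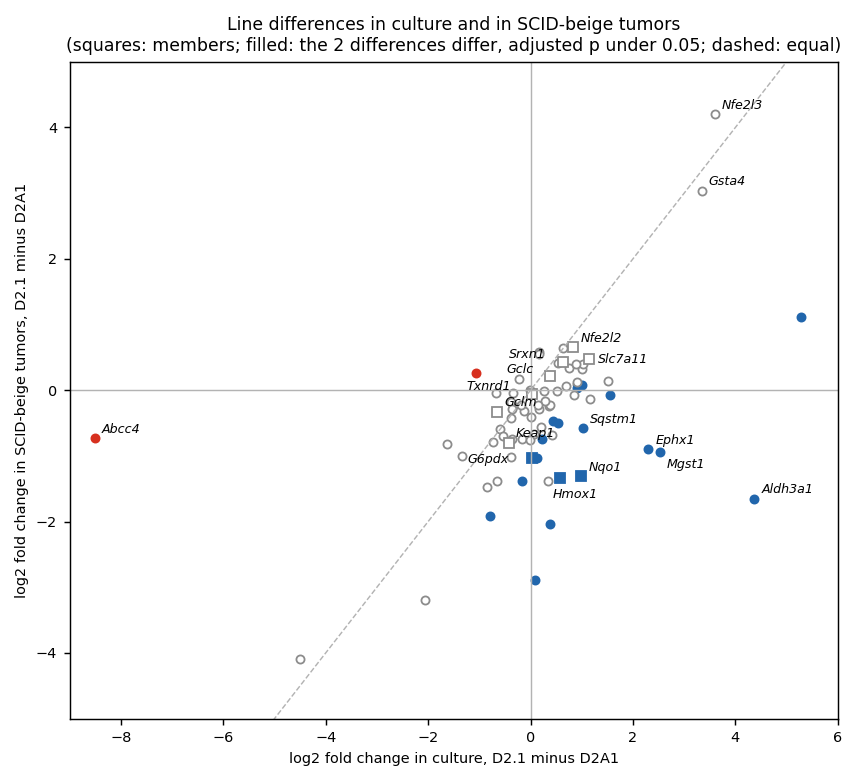
Log2 fold change of D2.1 against D2A1 in culture (x axis) and in SCID-beige tumors (y axis) for the members (squares) and the other pathway genes (circles); filled symbols passed the test of the difference between the 2 (blue, lower in tumors than in culture; red, higher), and the dashed line marks equal values. Nqo1 and Hmox1 lie to the lower right of the origin, together with Aldh3a1 (4.37 in culture, -1.65 in tumors), and Nfe2l3 and Gsta4 lie near the dashed line.

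The other 79 genes of the pathway, grouped by role, were read from the same fits. In culture 22 of the 71 tested rose and 14 fell in D2.1 relative to D2A1, with a median log2 fold change of 0.21. In SCID-beige tumors 5 of 72 were higher and 27 were lower (median -0.26), and in BALB/c tumors 5 of 72 were higher and 30 were lower (median -0.41). Without the BALB/c tumors that held milk or skin transcripts (D2.1 replicates 1 and 4), 2 were higher and 18 were lower. Over all genes, 24.2% were higher and 20.7% lower in culture, 17.2% and 14.8% in SCID-beige tumors, and 16.8% and 15.8% in BALB/c tumors. For the change in the line difference 4.62% were higher and 8.18% lower. These shares apply to the counts of each list below as well, and a count near them is not a result about that list. The medians over all genes were between -0.02 and 0.02. Of the 75 tested for a change in the line difference, 17 were lower in tumors than in culture and 2 were higher, with a median of -0.57.

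The enzymes that detoxify quinones, carbonyls and drugs, Nqo1 included, were the list with the most genes lower in D2.1 tumors by count, though in BALB/c mice a larger share of the shorter NADPH list was lower (5 of 6). Of the detoxification list 9 of 13 tested were lower and 0 were higher in SCID-beige tumors (median -0.90), and 9 of 14 were lower and 0 were higher in BALB/c tumors (median -0.92), whereas in culture 3 of 13 were higher and 4 were lower (median 0.22). Aldh3a1, an aldehyde dehydrogenase, was at 134 ± 44.8 CPM (SD, n = 3) in D2.1 and 7.18 ± 0.915 CPM (n = 3) in D2A1 cultured samples, the largest rise in culture under the naming rule (log2 fold change of 4.37 ± 0.32, adjusted p = 1.3e-05, edgeR). In tumors it was lower in D2.1 (log2 fold change of -1.65 in SCID-beige and -1.55 in BALB/c mice), though the lines overlapped in BALB/c mice (5.07 to 28.9 against 26.9 to 68.8 CPM). Its line difference changed by -5.99 ± 0.69 between SCID-beige tumors and culture (adjusted p = 9.6e-06, edgeR). Akr1c12 and Akr1c13, aldo-keto reductases, were lower in D2.1 in culture and in both hosts. Akr1c12 counts ranged from 34 to 177 across D2A1 libraries and from 0 to 7 across those of D2.1, for which no fold is given. Akr1c13 fell by 2.06 in culture, by 3.20 in SCID-beige and by 2.21 in BALB/c tumors on the log2 scale. The value in culture rests on counts of 5, 7 and 7 in D2.1 and 27, 27 and 18 in D2A1 samples. These 2 genes belong to a family of near-identical copies, and reads could have been shared between them.

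Among genes that use glutathione, 6 of 14 were higher and 1 was lower in culture (median 0.68), while 2 of 13 were higher and 5 were lower in SCID-beige tumors (median -0.23) and 1 of 12 was higher and 5 were lower in BALB/c tumors (median -0.54). Gsta4, a glutathione transferase that clears lipid aldehydes, kept 1 direction, at 328 ± 83.2 against 35.4 ± 14.0 CPM in culture (n = 3 each), 113 ± 44.2 against 14.2 ± 0.969 CPM in SCID-beige tumors (n = 5 each) and 117 ± 64.4 against 17.1 ± 6.68 CPM in BALB/c tumors (n = 4 each). Its log2 fold changes were 3.34, 3.04 and 2.85 (adjusted p of 0.00013, 1.6e-06 and 0.00063, edgeR). Mgst2, a microsomal glutathione transferase, did not pass the test in culture and was lower in D2.1 tumors, at 6.68 ± 6.27 against 50.6 ± 8.27 CPM in SCID-beige mice and 3.41 ± 0.543 against 48.7 ± 10.6 CPM in BALB/c mice. The log2 fold changes of Mgst2 were -2.89 ± 0.47 and -3.76 ± 0.23 (adjusted p of 0.0004 and 2.2e-06, edgeR).

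Enzymes that supply NADPH, G6pdx included, were lower in D2.1 tumors in 3 of 6 cases in SCID-beige mice and in 5 of 6 in BALB/c mice, with 0 higher in either. In culture 2 of 6 were higher and 1 was lower. In the thioredoxin and peroxiredoxin list, which holds Srxn1 and Txnrd1, 4 of 12 were higher and 3 were lower in culture, 1 was higher and 4 were lower in SCID-beige tumors, and 0 were higher and 5 were lower in BALB/c tumors. Glutathione synthesis and cystine uptake, which holds Gclm, Gclc and Slc7a11, had 2 higher and 1 lower of 5 in culture, 0 and 1 in SCID-beige tumors, and 0 and 3 in BALB/c tumors.

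Nrf2 regulators, Nfe2l2 and Keap1 included, were higher in 6 and lower in 2 of 14 cases in culture, higher in 3 and lower in 4 in SCID-beige tumors, and higher in 2 and lower in 5 in BALB/c tumors. Nfe2l3, a relative of Nrf2, was higher in D2.1 throughout, at 4.65 ± 0.68 against 0.409 ± 0.156 CPM in culture, 25.6 ± 14.7 against 1.45 ± 0.322 CPM in SCID-beige tumors and 22.6 ± 8.18 against 0.669 ± 0.32 CPM in BALB/c tumors. Its log2 fold changes were 3.60, 4.20 and 5.13 (adjusted p of 7.3e-05, 4.6e-06 and 1.1e-05, edgeR). Nfe2l1, another relative, was also higher in D2.1 in all 3 settings, by smaller margins, with log2 fold changes of 0.53 in culture, 0.41 in SCID-beige tumors and 0.43 in BALB/c tumors (adjusted p of 0.012, 0.042 and 0.036, edgeR). It was at 464 ± 75.2 against 363 ± 10.4 CPM in SCID-beige tumors, and in BALB/c tumors the lines overlapped (383 to 508 against 314 to 388 CPM).

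Heme and iron genes, Hmox1 included, had 3 higher and 2 lower of 9 in culture, 0 and 3 of 10 in SCID-beige tumors, and 0 and 1 of 10 in BALB/c tumors, Hmox1 being the 1 in the last. Conjugate exporters had 0 higher and 1 lower of 4 in culture, and 1 and 2 of 5 lower in SCID-beige and BALB/c tumors. Abcc4, an exporter of conjugates and nucleotides, had 1, 2 and 1 counts in the D2.1 cultured samples against 484, 430 and 525 counts in the D2A1 cultured samples. In every D2.1 tumor it had 47 to 141 counts. Tumors held host cells that culture lacked, so Abcc4 reads of host and D2.1 cells cannot be told apart there. Abcc2, another exporter, was lower in D2.1 tumors from BALB/c hosts (0.352 ± 0.324 against 2.35 ± 1.12 CPM, adjusted p = 0.029, edgeR). Its counts there were 3, 0, 12 and 9 in D2.1 and 39, 57, 42 and 15 in D2A1 tumors, so some D2.1 tumors were at or below the floor of 3 counts. Superoxide dismutases and catalase had 2 higher and 1 lower of 4 in culture, 1 and 1 in SCID-beige tumors, and 2 and 2 in BALB/c tumors, where catalase (Cat) was at 94.2 ± 15.8 against 71.0 ± 8.99 CPM (log2 fold change of 0.48 ± 0.16, adjusted p = 0.044, edgeR).

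**Figure D4:**
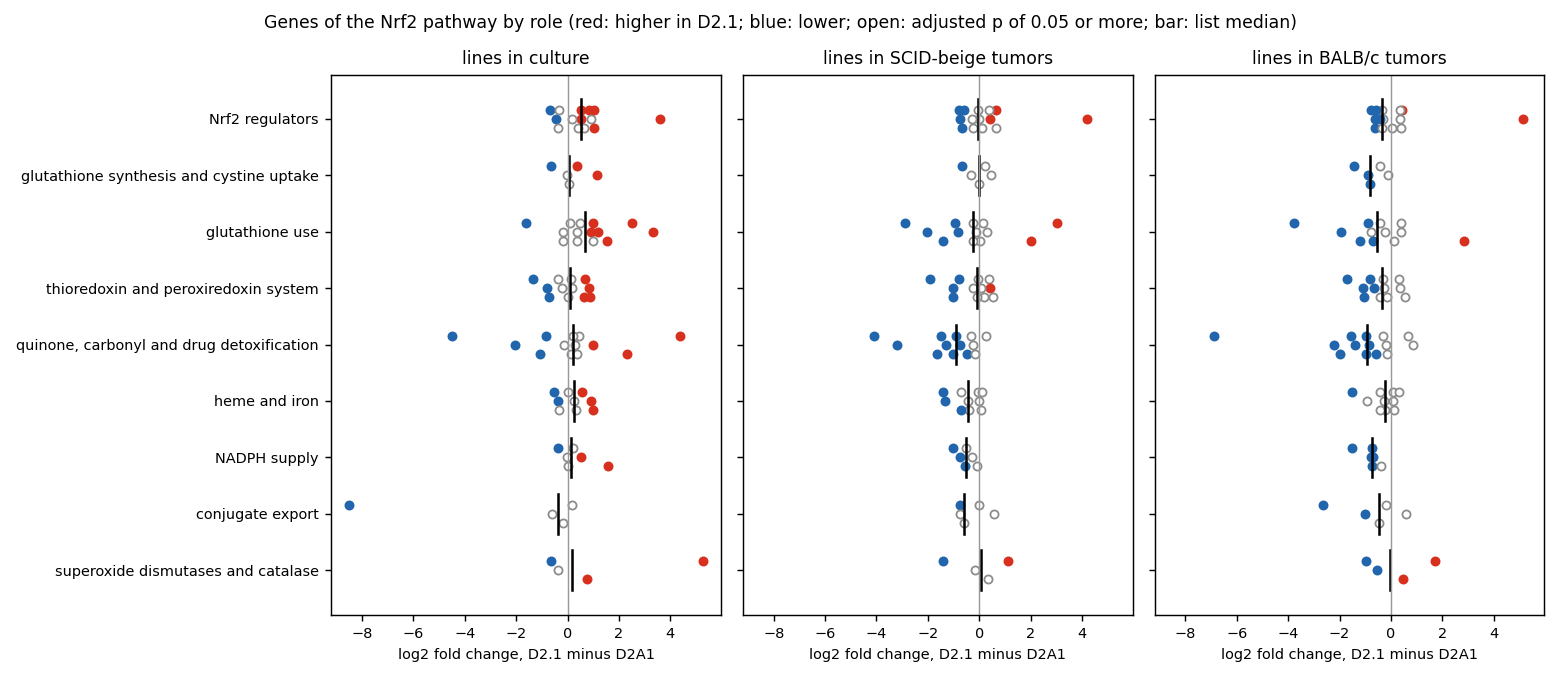
Log2 fold change of D2.1 against D2A1 for every tested gene of the pathway lists, members included, in culture, SCID-beige tumors and BALB/c tumors; red points were higher and blue points lower at an adjusted p under 0.05 (edgeR), open points were not called, and the black bar is the median of the list. The median of the quinone, carbonyl and drug list moved from 0.22 in culture to -0.90 and -0.92 in the tumors.

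Between hosts, no member passed the test in D2A1 tumors. In BALB/c against SCID-beige mice 0 of the 10 members were called in either direction, against 0.906% higher and 0.261% lower over all 14572 genes tested (edgeR), 2 members had an unadjusted p under 0.05, and DESeq2 also called 0. Those with an unadjusted p under 0.05 were Nqo1 (26.2 to 33.5 CPM in BALB/c, 31.6 to 44.1 CPM in SCID-beige, log2 fold change of -0.47 ± 0.17) and Gclm (71.0 to 89.5 against 49.6 to 75.8 CPM, 0.34 ± 0.14). A p that misses the threshold does not show that the members were alike in the 2 hosts. Of the other pathway genes, Slc40a1, the iron exporter ferroportin, was the 1 called of 72, at 10.2 ± 3.04 CPM (n = 4) in BALB/c and 28.1 ± 12.1 CPM (n = 5) in SCID-beige mice (log2 fold change of -1.47 ± 0.31, adjusted p = 0.046, edgeR), a call lost in 7 of 9 fits without 1 tumor.

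D2.1 tumors of the 2 hosts are described by their values alone. Srxn1, whose difference entered the choice of genes, was 1.72 times as high in SCID-beige as in BALB/c mice by the group means (97.4 ± 13.5 against 56.8 ± 8.16 CPM). Slc7a11 was at 24.5, 8.33, 43.4, 11.7 and 23.1 CPM in SCID-beige mice and at 2.37 to 6.85 CPM in BALB/c mice, so the lowest SCID-beige tumor exceeded the highest BALB/c tumor. The group means differed 4.59-fold, the widest host difference among the members. Nqo1 was 2.16 times as high in SCID-beige mice (14.9 ± 7.09 against 6.91 ± 1.06 CPM), and the other 7 members overlapped between the hosts. Among these, Txnrd1 was at 199 ± 36.8 CPM in SCID-beige and 141 ± 16.9 CPM in BALB/c mice, and Keap1 was the 1 member with a lower mean in SCID-beige mice (70.5 ± 11.2 against 86.9 ± 8.52 CPM).

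The spread between tumors differed from member to member. In D2.1 tumors of SCID-beige mice the highest and lowest tumors differed 5.21-fold in Slc7a11, 3.54-fold in Hmox1 and 2.97-fold in Nqo1, against 2.58-fold, 1.74-fold and 1.39-fold in D2A1 tumors of the same host. Keap1 differed 1.5-fold in D2.1 and 1.07-fold in D2A1 tumors of this host. Nfe2l2 went the other way, with 1.34-fold in D2.1 and 1.78-fold in D2A1 tumors, and Txnrd1 differed 1.67-fold and 1.70-fold. These spreads were not tested against each other. Among D2.1 tumors of SCID-beige mice, replicate 3 had the highest level of 5 members and replicate 4 of 4 others, while replicates 2 and 5 each had the lowest level of 4 members. Replicate 3 also had the highest macrophage and neutrophil markers (3810 and 120.9 CPM) and the lowest adipocyte markers (4.48 CPM) of the group. Replicate 4 had the highest epithelial, skeletal muscle and adipocyte markers (1183, 244.6 and 107.6 CPM) and the lowest fibroblast, macrophage and neutrophil markers (835, 1686 and 36.2 CPM). Replicate 5 had the highest fibroblast markers (1923 CPM). The part of these in the member levels was not tested.

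Across all 24 libraries, the order of levels differed from gene to gene. For Nqo1 the groups ran from D2.1 cultured samples (103 ± 3.97 CPM) through D2A1 cultured samples (56.5 ± 11.4), D2A1 tumors in SCID-beige (38.4 ± 4.87) and BALB/c mice (28.4 ± 3.42) to D2.1 tumors in SCID-beige (14.9 ± 7.09) and BALB/c mice (6.91 ± 1.06). Among neighbours in this order, D2A1 cultured samples overlapped with D2A1 tumors of SCID-beige mice, and these with D2A1 tumors of BALB/c mice, and the others were apart. For Srxn1 the order was D2.1 tumors in SCID-beige mice (97.4 ± 13.5), D2.1 cultured samples (92.8 ± 8.95), D2A1 tumors in SCID-beige (74.8 ± 7.60) and BALB/c mice (66.6 ± 7.84), D2A1 cultured samples (65.9 ± 2.51) and D2.1 tumors in BALB/c mice (56.8 ± 8.16), with each neighbouring pair overlapping. The genes whose log2 CPM ran most like that of Nqo1 over the 24 libraries were Por (Pearson r of 0.951), Ccn1 (0.937) and Tusc3 (0.933), and G6pdx was the member most like it (0.86). Those most like Srxn1 were Ergic1 (0.759), Atf4 (0.719) and Hbegf (0.713), with Slc7a11 the closest member (0.615). These correlations are over 6 groups that differ in line and setting, and no p is given.

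Per length of gene, members were ranked by mean deposited FPKM within each table alone, since the gene lengths behind the FPKM differ between the cell and tumor tables. Slc7a11 ranked last of the 10 in every group of either table. Within the tumor table, G6pdx was the most abundant member in D2A1 tumors of both hosts (160.2 FPKM in SCID-beige and 193 FPKM in BALB/c mice) and in D2.1 tumors from BALB/c hosts (65.0 FPKM), and Txnrd1 was in D2.1 tumors of SCID-beige mice (87.5 FPKM). Nqo1 ranked 9 of 10 in D2.1 tumors of either host, and 8 and 9 in D2A1 tumors of SCID-beige and BALB/c mice. Within the cell table, Txnrd1 was the most abundant member in both lines (99.1 FPKM in D2A1 and 92.1 FPKM in D2.1). The ranks of the 2 tables are not compared.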

How the data were processed

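RNA was sequenced from 6 samples of cultured cells and 18 whole tumors (Novogene, Illumina NovaSeq). The authors deposited raw read counts per gene and FPKM values, made with Novogene's pipeline or GENAVi. The submitters' processing notes name STAR and mm10, and the counting program, annotation and strand setting are not given in the sources used here. The deposited FPKM imply gene lengths that differ between the cell and tumor tables (median ratio 1.45 over 19189 genes, 3.35 for Gclm), so FPKM were compared only within a table, and levels and likeness across tables used CPM in place of the planned FPKM. Gene symbols came from GENCODE M21 by Ensembl identifier; identifiers without a symbol held 0.0969% of counts in cells and 0.00594% in tumors. Libraries were assigned by their labels.

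Counts were fitted in edgeR 4.0.16 (R 4.3.3; robust quasi-likelihood, filterByExpr, TMM), with only the compared groups in a fit and Benjamini-Hochberg adjustment over all genes tested. DESeq2 1.42.0, its size factors, other filters, a replicate block and leaving out each library were alternatives. The fits were tested on simulated counts with the same small dispersion for every gene and large changes only. That test does not cover the smaller differences and wider spread of some members. No 2 libraries of a group were copies of each other (38 pairs). The members and gene lists (Nrf2 regulators, glutathione synthesis, glutathione use, thioredoxin and peroxiredoxin, detoxification, heme and iron, NADPH supply, conjugate export, superoxide dismutases, and cell type markers) were chosen with earlier results of these data known. Named were all members and, per comparison, up to 3 pathway genes with the highest and 3 with the lowest fold change among those called, with a mean of at least 1 FPKM and no overlap; genes at the edge of a list's count were named after their values were seen. Deviations of same-numbered libraries correlated at 0.184 to 0.491 in culture and at 0.1004 to 0.491 in BALB/c tumors of the 2 lines. Some libraries of different numbers correlated as much or more. In culture, D2.1 replicate 1 had 0.357 with D2A1 replicate 2 and 0.332 with D2A1 replicate 1. In BALB/c tumors, D2.1 replicate 4 had 0.414 with D2A1 replicate 3 and 0.345 with D2A1 replicate 4. The numbers therefore do not establish pairs, and neither labels nor methods tie them to a shared day. Same-numbered correlations ran from -0.161 to 0.344 in SCID-beige tumors and from -0.441 to -0.187 for the hosts in D2A1 tumors.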

Additional observations from a re-analysis of the deposited data

Results flagged for a closer look

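The line difference of 3 members differed between SCID-beige tumors and culture when the difference itself was tested (edgeR): -2.29 for Nqo1, -1.89 for Hmox1 and -1.04 for G6pdx on the log2 scale, tumors minus culture. In BALB/c tumors against culture, every library of D2.1 lay on the other side of D2A1 for Nqo1 (fitted line differences apart by -2.96), Hmox1 (-2.07) and Slc7a11 (-2.59), and these differences between settings were not tested.

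In 3 of the 40 combinations of member and tumor group, 1 tumor lay far from the others by Dixon's ratio of its gap to the range, where chance gives about 1 in 20. These were Nfe2l2 in D2A1 tumors of BALB/c mice (replicate 3 low at 83.4 CPM, ratio 0.887), Srxn1 in D2.1 tumors from BALB/c hosts (replicate 3 high at 69.0 CPM, ratio 0.893) and Nqo1 in D2A1 tumors of BALB/c mice (replicate 4 high at 33.5 CPM, ratio 0.861).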

How the results depend on the processing

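The number of members called stayed within 1.5 times the reported one in all 5 tests under the alternatives run, with 6 to 8 in culture, 7 in BALB/c tumors, 5 to 6 in SCID-beige tumors, 0 for hosts in D2A1 tumors and 3 for the change of the line difference when a library was left out. With the replicate number as a block, 7 members were called in culture and 8 in BALB/c tumors, Slc7a11 losing its call in culture (1.11) and Gclc gaining one in BALB/c tumors (-0.41), and the block changed no other call of a member in those 2 comparisons. Without the tumors holding milk or skin transcripts, 20 other pathway genes were called in BALB/c tumors in place of 35, from a fit with fewer tumors. For hosts in D2A1 tumors, the count over all genes was 170 and moved to 565 with DESeq2, to 0 with the replicate block and to between 27 and 172 with a tumor left out (27 without BALB/c replicate 4, and 60 to 111 without BALB/c replicate 1 or SCID-beige replicate 1, 4 or 5), and the 1 other pathway gene called fell to 0 with the block, with all tumors in 1 fit and with most single tumors left out (0 to 1). Signs turned only for members near 0 that were not called, with a library left out: in culture Txnrd1 (-0.01 to 0.06) and G6pdx (-0.06 to 0.15), in BALB/c tumors Nfe2l2 (-0.08 to 0.16), in SCID-beige tumors Txnrd1 (-0.22 to 0.02), for hosts in D2A1 tumors Txnrd1 (-0.01 to 0.17, and -0.0081 without D2A1 SCID-beige replicate 2) and for the change of the line difference Txnrd1 (-0.19 to 0.01). Apart from what is shown by the settings' own construction, the cause was not tested. Groups of 3 to 5 libraries limit the smaller differences, and the depth does not limit any member.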
